A study of Mus musculus with 3 samples.

Results

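Chemokine receptors are the surface molecules with which immune cells sense chemokines, and 9 of them, Ccr1, Ccr2, Ccr6, Ccr7, Cx3cr1, Cxcr3, Cxcr4, Cxcr5 and Cxcr6, were followed across the immune cells of the mouse kidney. They are 9 of the 32886 genes of the count table, chosen by name and not by their values, and all 9 were detected, with between 835 (Ccr6) and 13944 (Ccr7) unique molecular identifiers (UMIs, each 1 captured transcript). The cells were CD45+ immune cells sorted after dissection of the kidney into its cortex, its outer (OM) and its inner medulla (IM). They came from untreated wild-type male C57BL/6J mice aged 10 weeks, and their RNA was sequenced cell by cell in droplets at 3 facilities, in Aachen, Bonn and Hamburg. The 3 datasets served as replicates (n = 3), since GEO's labels give 1 sample per compartment, and each compartment of each dataset was treated as 1 library, which gave 9 libraries. No treated or mutant group was part of the comparison, the cells are those that survived enzymatic digestion, and the sources used here do not say how many mice were pooled in each library.

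Chemokine receptors are G protein-coupled receptors that direct migration along gradients of their ligands, and cells change position in a tissue largely by changing which of these receptors they carry. Ccr2 takes monocytes from the bone marrow and blood into tissue, Cx3cr1 binds fractalkine and marks patrolling monocytes and many tissue macrophages, including those of the kidney, and Ccr1 is used by neutrophils and monocytes. Cxcr3 follows the interferon-induced chemokines Cxcl9 and Cxcl10, Cxcr6 binds Cxcl16 and is a feature of tissue-resident lymphocytes, and Ccr6 follows Ccl20. Ccr7 and Cxcr5 lead cells to the T cell zones and B cell follicles of lymphoid organs, and Cxcr4 holds cells in niches rich in Cxcl12.

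The genes lie on 5 chromosomes (GENCODE vM21, GRCm38, the assembly also called mm10). Cxcr6 (chr9:123806475-123811760, plus strand), Ccr1 (chr9:123962124-123968692, minus strand) and Ccr2 (chr9:124101950-124113557, plus strand) lie within 307 kb of each other, in the cluster of chemokine receptor genes on chromosome 9, yet each was highest in a different cell type. Cx3cr1 (chr9:119901616-120069879) and Cxcr5 (chr9:44511787-44561877), both on the minus strand, lie on the same chromosome. Cxcr4 is at chr1:128588199-128592293 (minus strand), Ccr7 at chr11:99144196-99155077 (minus strand), Ccr6 at chr17:8236043-8257141 (plus strand) and Cxcr3 at chrX:101731535-101734269 (minus strand). The bases before Cxcr6 and Cxcr3 are shown because T_cell_1, T_cell_2 and NK_cell_2 carried both receptors. In T cells both lay below the cortex in each medullary library. In NK cells they did so in each medullary library with enough cells, which leaves out the Bonn OM. The bases were read from RefSeq promoter windows (GRCm38.p6), which hold 7 of the 9 genes, and were ended where the GENCODE gene begins. Capitals mark TGTGG or its reverse complement CCACA, the core recognised by RUNX factors.
Cxcr6, chr9:123806227-123806474, plus strand, 248 bases before the gene: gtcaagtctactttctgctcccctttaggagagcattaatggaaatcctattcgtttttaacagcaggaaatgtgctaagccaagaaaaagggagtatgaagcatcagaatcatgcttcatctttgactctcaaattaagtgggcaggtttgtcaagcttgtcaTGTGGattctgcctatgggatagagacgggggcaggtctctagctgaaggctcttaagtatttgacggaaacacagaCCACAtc
Cxcr3, chrX:101734270-101734397, minus strand, 128 bases before the gene: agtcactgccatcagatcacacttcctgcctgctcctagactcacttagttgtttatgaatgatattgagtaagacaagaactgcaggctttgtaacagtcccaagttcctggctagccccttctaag
The Cxcr6 stretch holds 2 matches that do not overlap, and 49.1% of all 32851 starts in the table hold at least 1 in a window of that length. The Cxcr3 stretch holds 0, while 29.8% of all starts hold at least 1 in a window of its length. Ccr1, highest in neutrophils, has 3 matches in its 250 bases. Ccr6 has 1 and Cxcr4 has 0 in 250 bases, a length in which 49.3% of all starts hold at least 1. A match to 5 letters is a description and not a bound site.

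The table holds 20266 cells in 23 clusters named by the authors, and 621 to 3677 cells per library. Library depth ran from 2122810 to 15267100 UMIs, and the median cell held 887 UMIs in Aachen (10x chemistry version 2) against 3290.5 in Bonn and 2944 in Hamburg (both version 3). The smaller counts make Aachen the least precise dataset for these sparse genes. Any 2 libraries shared 2 to 8 cell barcodes in Aachen, 1 to 8 in Bonn and 0 in Hamburg, and any 2 datasets 54 to 80. Barcodes of each Aachen compartment carried 2 suffixes, and the Hamburg compartments shared 1 suffix. Whether these differences reflect how the runs were made was not tested. Doublets were called in 10, 256 and 22 cells of Aachen, Bonn and Hamburg, 185 of them in the Bonn cortex. The clusters named for neutrophils, macrophages and T cells led in their own markers. The summed level of 5 neutrophil markers was 706 UMIs per 10000 in Neutrophils and at most 1.64 elsewhere, that of 10 macrophage markers 351 to 634 in the macrophage clusters and at most 145 elsewhere, and that of 6 T cell markers 21.6 to 44.1 in the T cell clusters against 21.4 in Prolif._cell. Other lists separated less. The 8 monocyte markers were at 53.9 in Monocyte and 51.3 in pDC, the 5 cDC1 markers at 28.6 in cDC1 and 27.6 in pDC, and the 6 markers of naive or central T cells at 49.4 in T_cell_3 and 54.3 in B_cell_1. NK cell markers were at 178 in NK_cell_1, 41.9 in NK_cell_2 and 31.9 in T_cell_2.

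Each receptor had its own distribution over the clusters. Levels are given as counts of UMIs of the gene for each 1000000 UMIs of the cluster (CPM), as the mean ± SD of the 3 datasets, for the 20 clusters with at least 20 cells in each dataset. Clusters were defined by expression, so their order is a description with no test, and neighbours are called separate only where the ranges of the 3 datasets do not overlap. The heat map of cluster levels shows Ccr1 and Cxcr4 highest in neutrophils, Ccr2 in monocytes, Cx3cr1 in macrophages and Ccr7 and Cxcr5 in B cells, while T_cell_1, T_cell_2 and NK_cell_2 held both Cxcr3 and Cxcr6. Levels can be compared along a gene but not between genes, whose capture differs.

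**Figure D1:**
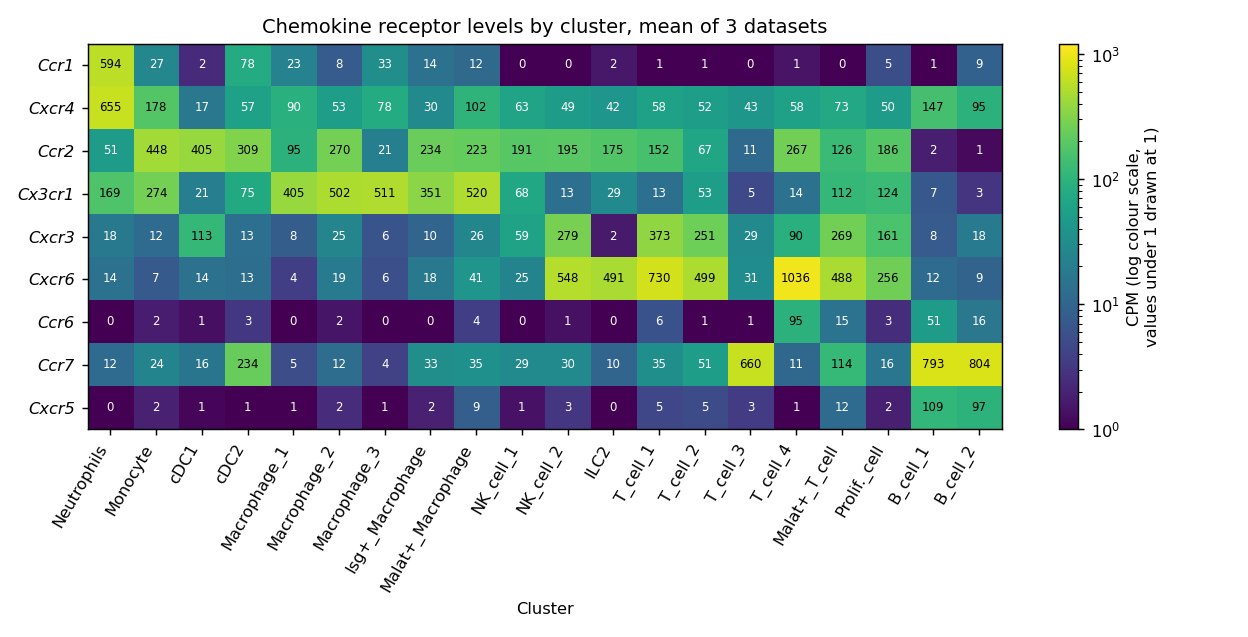
Mean level of each receptor (rows) in each of 20 clusters (columns) in CPM, printed in each cell and coloured on a log scale, over 3 datasets. Ccr1 and Cxcr4 peak in Neutrophils (594 and 655), Cxcr6 in T_cell_4 (1036) and Cxcr5 in the B cell clusters (109 and 97).

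Among the receptors of myeloid cells, Ccr1 was the most restricted. It reached 781, 428 and 573 CPM in the neutrophils of Aachen, Bonn and Hamburg (mean 594 ± 177), followed by cDC2, the conventional dendritic cells that present antigen to CD4 T cells, with 64.3, 68.4 and 102 (mean 78.3 ± 20.9). The ranges of these 2 clusters did not overlap with each other or with the next, Macrophage_3 (33.4 ± 18.5). The Aachen neutrophils were only 25 cells. In cDC1, the other conventional dendritic cells, Ccr1 was at 2.34 ± 3.08.

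Ccr2 was spread widely. It was highest in monocytes, at 276, 683 and 387 CPM (mean 448 ± 210.4), and followed in cDC1 (405 ± 201), cDC2 (309 ± 169), Macrophage_2 (269.7 ± 165) and T_cell_4 (267 ± 68.9), each overlapping the next. Both NK clusters and ILC2 carried it as well, between 175 and 195. The macrophage clusters differed in it, with 164, 460.3 and 184 in Macrophage_2 against 10.7, 48.4 and 4.23 in Macrophage_3, ranges that do not overlap, and 95 ± 30.2 in Macrophage_1. B cells were nearly free of it (1.82 ± 1.43 in B_cell_1).

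Cx3cr1 was shared by all 5 macrophage clusters, where it ranged from 351 ± 218 (Isg+_Macrophage) to 519.8 ± 168 CPM (Malat+_Macrophage), and the ranges of these clusters, and of monocytes, overlapped. Unlike Ccr2, it had overlapping ranges in Macrophage_3 (309, 813 and 412) and Macrophage_2 (375, 727 and 405). Monocytes were at 274 ± 101, NK_cell_1 at 68.4 ± 29.3 and NK_cell_2 at 13.3 ± 14.5. Cxcr4 was found at some level in each cluster. Neutrophils led with 1207, 352 and 408 (mean 655 ± 478), a range above that of each other cluster, then came monocytes (178 ± 113) and B_cell_1 (147 ± 90.2), while cDC1 was lowest (17 ± 17.9).

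Of the receptors of effector lymphocytes, Cxcr6 was highest in T_cell_4, at 735, 1433 and 940.2 CPM (mean 1036 ± 359), a range that overlaps that of T_cell_1. T_cell_1 (730.0 ± 382), NK_cell_2 (548 ± 137), T_cell_2 (499 ± 226) and ILC2, group 2 innate lymphoid cells (491 ± 244), followed with overlapping ranges. Both T_cell_3 and NK_cell_1 stood far below these, with 30.0, 45.8 and 17.7 in T_cell_3 and 17.8, 36.7 and 19.5 in NK_cell_1.

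Cxcr3 followed Cxcr6 in T and NK cells but not in ILC2. It was at 373 ± 186 CPM in T_cell_1, 279 ± 129.6 in NK_cell_2 and 251 ± 129 in T_cell_2, against 1.69 ± 1.65 in ILC2. In T_cell_4, which led for Cxcr6, Cxcr3 was at 51.3, 171 and 48.3. Among myeloid clusters cDC1 stood out, with 95.9, 134 and 110.0 in the 3 datasets against 9.64, 23 and 7.23 in cDC2. Ccr6, the receptor of type 17 T cells and of B cells, was highest in T_cell_4 (17.1, 171 and 95) and in B_cell_1 (16.4, 97.6 and 37.7), and both were low in Aachen. These ranges overlap, and T_cell_4 was small, with 2 to 28 cells per library. B_cell_3, which held 225 cells in Hamburg and few elsewhere, was at 140.1 there for Ccr6 and at 324 for Cxcr5.

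Of the receptors of lymphoid homing, Ccr7 was highest in B cells and T_cell_3 and Cxcr5 in B cells. Ccr7 was at 257, 308 and 1847 CPM in B_cell_2, 403, 398 and 1579 in B_cell_1 and 210.0, 566 and 1203 in T_cell_3. Next was cDC2 with 86.8, 117 and 498, and the other cDC cluster, cDC1, was at 15.7 ± 16.8. Hamburg stood above the other datasets in all 4. Cxcr5 was nearly restricted to B cells. It reached 42.2, 155 and 129.7 in B_cell_1 and 27, 111 and 152 in B_cell_2, and the third cluster in order, Malat+_T_cell (11.8 ± 11.2), did not overlap with B_cell_2. The plot of levels by dataset shows how far each order is kept in the single datasets.

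**Figure D2:**
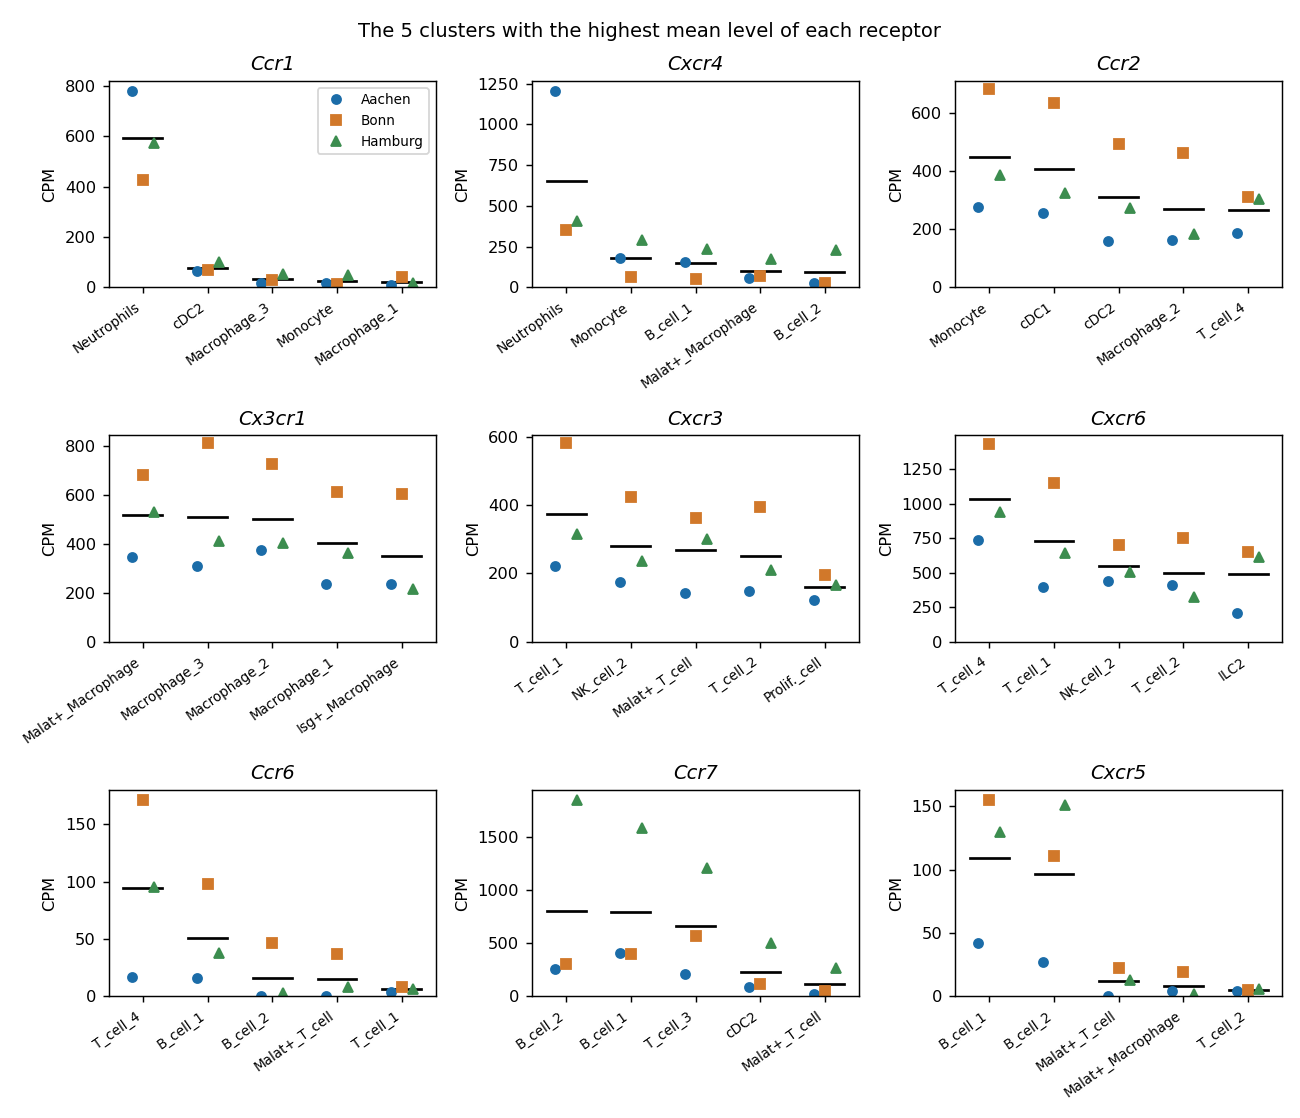
Level (CPM, linear axis from 0) of each receptor in its 5 highest clusters, with a symbol for each dataset and a line at their mean. Hamburg lies above the others for Ccr7 (1579 in B_cell_1 against 403 and 398), and Bonn is the highest for Cxcr3, Cxcr6 and Cx3cr1 in the clusters drawn.

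The datasets did not differ in the same way for each receptor. In the 3 datasets taken whole, Ccr7 had 513, 3524 and 9907 UMIs (Aachen, Bonn and Hamburg) and Cxcr4 502, 812 and 3540, both most in Hamburg, while Cx3cr1 had 1376, 6845 and 2284 and Ccr6 21, 599 and 215, both most in Bonn. Bonn and Hamburg share the chemistry version and hold 26751200 and 24312200 UMIs in all. Facility, chemistry version (Aachen against the others) and the way counts were made (whole numbers in Aachen and Bonn, 0.118% whole in Hamburg) cannot be told apart here. Levels are therefore compared between compartments within a dataset only.

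At the level of single cells, a share gives the cells in which a UMI was found, which sparse counts limit. It does not measure how many cells express the receptor. A UMI of Cxcr6 was found in 54.3% of T_cell_4 cells in Aachen, in all of them in Bonn and in 94.6% in Hamburg (median depths 1064, 4458 and 4617 UMIs). After cells were thinned to 500 UMIs, which leaves out 814 shallower cells, the shares were 30.2, 43.9 and 39.2%. In B_cell_1, which should lack Cxcr6, the shares were 0.245, 0.0616 and 0.705% after thinning and, without it, 0.699, 0.677 and 2.12% (medians 731, 2746 and 2548 UMIs). The shares in T_cell_4 lay far above those in B_cell_1, and the source of the UMIs in B_cell_1 was not tested. The shares that follow are also of thinned cells. Cxcr3 was in 17.5% ± 7.80 of T_cell_1 cells and in at most 0.99% of Macrophage_1 cells. Ccr2 was in 19.2% ± 10.7 of cDC1 and 15.3% ± 4.71 of monocytes, and in at most 0.176% of B_cell_1 cells. Cxcr5 and Ccr6 were sparse, with 5.31% ± 2.68 of B_cell_1 and 3.30% ± 1.38 of T_cell_4 cells, against at most 0.885 and 0% of Macrophage_1 cells. The Ccr6 share rests on few cells, since T_cell_4 held 2 to 28 cells per library. Over all T cells, 1, 9 and 2 thinned cells of Aachen, Bonn and Hamburg held a UMI of Ccr6. Without thinning, Ccr6 was in 2.17, 41.5 and 32.4% of T_cell_4 cells. Cxcr3 was then in 51.9% ± 29.6 of T_cell_1 cells and Cxcr5 in 21.2% ± 15.8 of B_cell_1 cells. Ccr2 was in 71.2% ± 17.6 of cDC1 and 43.8% ± 14.2 of monocytes. In the clusters that should lack them, the unthinned shares were at most 3.17% for Cxcr3, 0.882% for Ccr2 and 0.885% for both Cxcr5 and Ccr6. Cxcr4 had no cluster that lacks it to compare with.

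Pairs of receptors met in the same cells to different degrees. T cells with a UMI of Ccr7 and one of Cxcr6 numbered 1, 2 and 1 in the thinned cells of Aachen, Bonn and Hamburg, where the product of the 2 shares gives 3.87, 30.3 and 39.9. With all counts they numbered 13, 69 and 83, against 19.7, 226 and 283, so a UMI of Cxcr6 was then found in 18.1, 19.9 and 15% of the Ccr7-positive T cells and in 27.9, 77.8 and 64% of the rest. Cxcr3 and Cxcr6 went the other way, with 23, 143 and 48 thinned T cells holding both against 15.9, 91.7 and 35.6. Put as a share, 21.5, 47.8 and 24.1% of the Cxcr3-positive T cells held a UMI of Cxcr6, against 14.4, 26.7 and 17.2% of the rest. In B cells, Ccr7 and Cxcr5 met in 1, 19 and 57 thinned cells against 2.93, 23.6 and 53.8. With all counts they met in 9, 368 and 320 cells against 8.09, 354 and 302. In cDCs, no thinned cell held both Ccr2 and Ccr7 among 239, 314 and 412 cells, which allows shares of up to 1.26, 0.955 and 0.728%, and the product gives 0.264, 1.34 and 3.32 cells. With all counts 0, 17 and 23 cDCs held both, against 3.43, 27.4 and 31.7, and the 0 of Aachen allows a share of up to 1.22%. The clusters of a class differ in these receptors, and cells of 1 library are not replicates, so the counts are given with no test.

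The genes whose profile over the 20 clusters was closest to a receptor's were named by Pearson's r of log2(CPM + 10), averaged over datasets, among 6021 genes. Clusters share libraries and lineage, so r is a description. Cx3cr1 was nearest to Csf1r (r = 0.974), the receptor on which macrophages depend. Cxcr5 was nearest to Fcmr (0.985), and Ebf1 was among its closest (0.981), both B cell genes. Cxcr6 was nearest to Cish (0.973), Ikzf2 (0.963) and Rora (0.943), and Cxcr3 to Cd226 (0.89), Itga1 (0.889) and Zfp683 (0.88, which encodes Hobit, a factor of tissue-resident lymphocytes). Ccr1 was nearest to Il1r2 (0.957), the interleukin-1 decoy receptor, and Ccr7 to Bach2 (0.902). Among the receptors themselves, the closest pairs were Ccr7 and Cxcr5 (r = 0.753), Cxcr3 and Cxcr6 (0.715) and Ccr1 and Cxcr4 (0.71), and the most opposed Ccr2 and Cxcr5 (-0.677).

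Whether the receptors differ with position was asked within each cell class, by summing the counts of a class in each library and comparing compartments in edgeR with the dataset as block. Differences are on the log2 scale, given ± SE, and library values are in the order cortex, OM and IM. Resident macrophages (Macrophage_1 to Macrophage_3 and Isg+_Macrophage), monocytes, cDCs, T cells and B cells had 9 libraries each, and NK cells and ILC2 had 8, since the Bonn OM held 19 and 12 such cells. Neutrophils were too few for the test. Of the 63 combinations of receptor and class, 39 passed the filter on low counts. Of these, 3 differed between medulla (the mean of OM and IM) and cortex, with Ccr1 higher in cDCs and Cxcr3 lower in cDCs and in NK cells, and 19 had an unadjusted p under 0.05, as did 3.24 to 12.3% of all genes by class. The share of all genes called was 1.23% in resident macrophages, 0.312% in monocytes, 1.88% in cDCs, 0.0117% in T cells, 0.0353% in B cells, 0.627% in NK cells and 0.299% in ILC2. Without the dataset as block 0 of the 39 were called, and DESeq2 called 0.

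For OM against cortex, 1 of the 39 was called (Cxcr3 in NK cells, -1.13 ± 0.27, adjusted p = 0.00672), 0 by DESeq2 and 0 to 3 on leaving out a dataset. An unadjusted p under 0.05 was found for 13, and for 3.56 to 11.5% of all genes by class. The share called of all genes was 0.826% in resident macrophages, 0.238% in monocytes, 1.11% in cDCs, 0.0235% in T cells, 0.047% in B cells, 0.813% in NK cells and 0.0427% in ILC2. For IM against cortex the count was 0, with 16 at an unadjusted p under 0.05 (2.07 to 9.26% of all genes by class) and 0 by DESeq2, and the share of all genes was 0.0851% in resident macrophages, 0.202% in monocytes, 1.02% in cDCs, 0.0235% in T cells, 0.0353% in B cells, 0.0847% in NK cells and 0.171% in ILC2. Between OM and IM it was 0 as well, with 3 at an unadjusted p under 0.05 (2.80 to 4.68% of all genes by class) and 0 by DESeq2, and the share of all genes was 0% in resident macrophages, 0.0917% in monocytes, 0.0592% in cDCs, 0% in T cells, 0.0235% in B cells, 0.186% in NK cells and 0% in ILC2. All adjusted p-values are from edgeR's quasi-likelihood test, adjusted by Benjamini-Hochberg over all genes of the class.

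**Figure D3:**
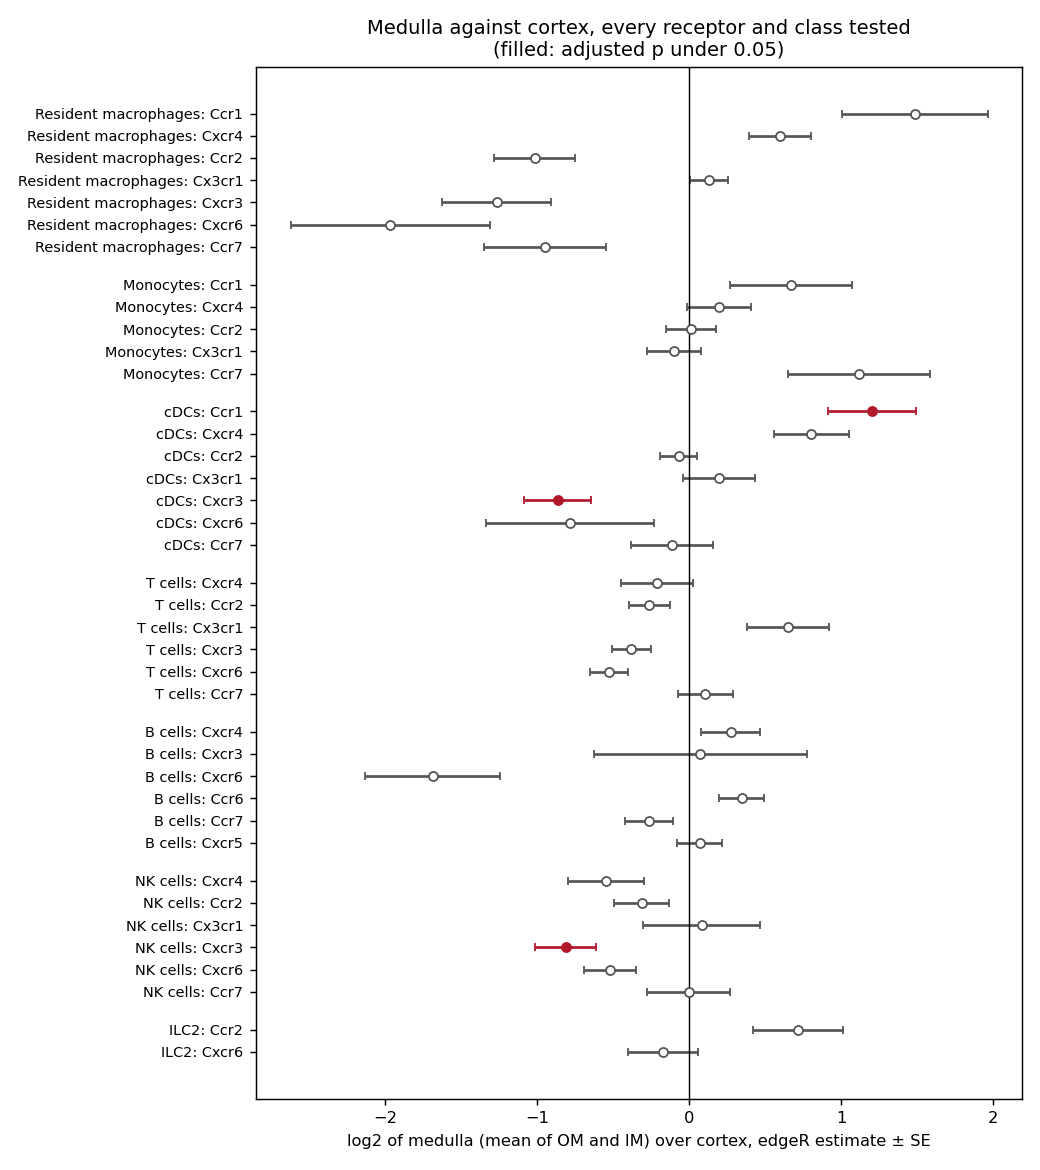
Log2 of medulla (mean of OM and IM) over cortex for each of the 39 combinations of receptor and class tested, as the edgeR estimate with its standard error, grouped by class. Filled symbols passed the threshold, Ccr1 in cDCs at 1.20, Cxcr3 in cDCs at -0.86 and Cxcr3 in NK cells at -0.81.

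In cDCs, Ccr1 rose and Cxcr3 fell from cortex to medulla in the fit, but not in each dataset. Ccr1 was at 45, 16.9 and 23.7 CPM in Aachen, at 29.5, 68.9 and 64.6 in Bonn, and at 18.4, 76.5 and 78.6 in Hamburg. It was higher in both medullary libraries of Bonn and Hamburg and lower in both of Aachen, and the groups overlap. The fitted difference was 1.20 ± 0.29 (adjusted p = 0.0331), and over all alternatives the call was lost in 10 of 18. Cxcr3 was at 52.5, 39.4 and 71.2 CPM in Aachen, at 78.9, 35.7 and 34.6 in Bonn, and at 76.7, 52.2 and 25.4 in Hamburg. It was lower in both medullary libraries of Bonn and Hamburg, but in Aachen the IM was above the cortex. The fitted difference was -0.86 ± 0.22 (adjusted p = 0.0496), and over all alternatives the call was lost in 13 of 18. Leaving out 1 library at a time gave 0.75 to 1.51 for Ccr1 and lost the call for 6 of 9 libraries (Aachen OM, Bonn cortex, Bonn IM, Hamburg cortex, Hamburg OM or Hamburg IM), the lowest being 0.75 (adjusted p = 0.525) without the Hamburg cortex. For Cxcr3 it gave -1.04 to -0.69 and lost the call for 7, all but Aachen cortex and Aachen IM, with an adjusted p of 0.412 without the Bonn cortex. The other named receptors of cDCs, Ccr2, Ccr7 and Cx3cr1, gave -0.07 ± 0.12, -0.11 ± 0.27 and 0.20 ± 0.24 and did not pass.

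The makeup of the cDCs also differed between compartments. It went with the receptor differences in Bonn and Hamburg, while in Aachen Ccr1 was lower in both medullary libraries and Cxcr3 higher in the IM. The part of the makeup in the result was not tested. cDC1 made up 54.1% ± 13 of the cDCs of the cortex (66.2, 40.3 and 55.8% in Aachen, Bonn and Hamburg), against 20.7% ± 5.86 in OM and 23.4% ± 12.9 in IM, lower in both medullary libraries of each dataset, and cDC1 is the cluster with Cxcr3 while cDC2 has Ccr1. Xcr1, the receptor that defines cDC1, fell as well, by 1.21 ± 0.15 (adjusted p = 2.22e-04), and lost its call in 3 of 18 alternatives, among them cDC1 alone (-0.43). Within cDC1 alone, Cxcr3 differed by 0.12 (adjusted p = 1), in a fit that holds no medullary library of Bonn, whose OM and IM had 7 and 13 cDC1. Within cDC2 alone, Ccr1 differed by 0.47 (adjusted p = 0.99). In cDC2 it was at 165, 22.6 and 47.3 CPM in Aachen, at 50.9, 87.9 and 76.2 in Bonn, and at 53.1, 111 and 117 in Hamburg, higher in the medulla of Bonn and Hamburg and lower in that of Aachen. The 10 macrophage markers summed in cDCs to 112 to 146 UMIs per 10000 in cortex and 107 to 168 in medulla, and their part in the result was not tested.

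**Figure D4:**
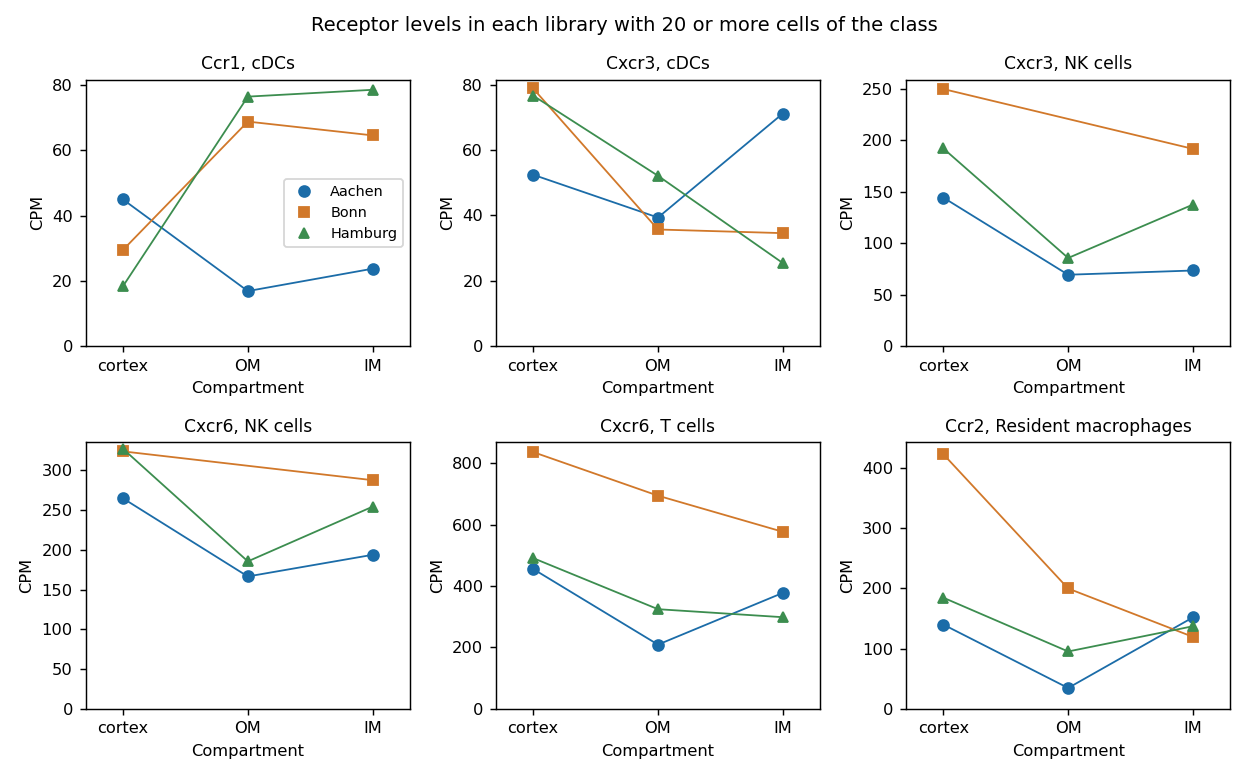
Level (CPM, linear axis from 0) of 6 combinations of receptor and class in cortex, OM and IM, with a line for each dataset; libraries with fewer than 20 cells are left out. Cxcr6 in T cells and Cxcr3 in NK cells are highest in the cortex in each dataset, while Ccr1 in cDCs falls in Aachen (from 45) and rises in Bonn and Hamburg (from 29.5 and 18.4).

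In NK cells, Cxcr3 fell in the medulla. It was at 144, 69.4 and 73.5 CPM in Aachen, at 249.9 and 192 in cortex and IM of Bonn, and at 192, 85.6 and 138 in Hamburg, and each medullary library lay below the cortex of its dataset. The fitted difference was -0.81 ± 0.20 (adjusted p = 0.0133), and over all alternatives the call was lost in 13 of 19. Leaving out 1 library at a time gave -0.87 to -0.65 and lost the call for 6 of 8 libraries, all but Aachen OM and Aachen IM, with an adjusted p of 0.06 without the Aachen cortex and of 0.723 without the Hamburg OM. Cxcr6 was at 265, 166 and 194 CPM in Aachen, at 324 and 288 in cortex and IM of Bonn, and at 327, 185 and 254 in Hamburg, also below the cortex in each medullary library, but its difference of -0.52 ± 0.17 (adjusted p = 0.196) did not pass (95% interval -0.86 to -0.18). Ccr2 gave -0.31 ± 0.18 (adjusted p = 0.92) and Cxcr4 -0.54 ± 0.25 (adjusted p = 0.73).

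Here too the makeup differed between compartments, and its part in the result was not tested. NK_cell_2, the cluster that holds Cxcr6 and most of Cxcr3, made up 58.8% ± 13.7 of NK cells of the cortex, against 44.9% ± 16.4 in OM and 38.8% ± 9.30 in IM, and was lower than in cortex in 5 of the 6 medullary libraries. The exception was the Bonn OM, whose 19 NK cells were 63.2% NK_cell_2 against 43% in the Bonn cortex. Within NK_cell_2 alone Cxcr3 differed by -0.35 (adjusted p = 0.999) and Cxcr6 by 0.06, again with no medullary library of Bonn, whose OM and IM had 12 and 13 NK_cell_2 cells. The 10 macrophage markers summed in NK cells to 5.75 to 29.6 UMIs per 10000 in cortex and 1.83 to 37.2 in medulla, and the 6 T cell markers to 3.85 to 10.6 UMIs per 10000 in cortex and 4.94 to 8.80 in medulla. The part of these other transcripts in the result was not tested.

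**Figure D5:**
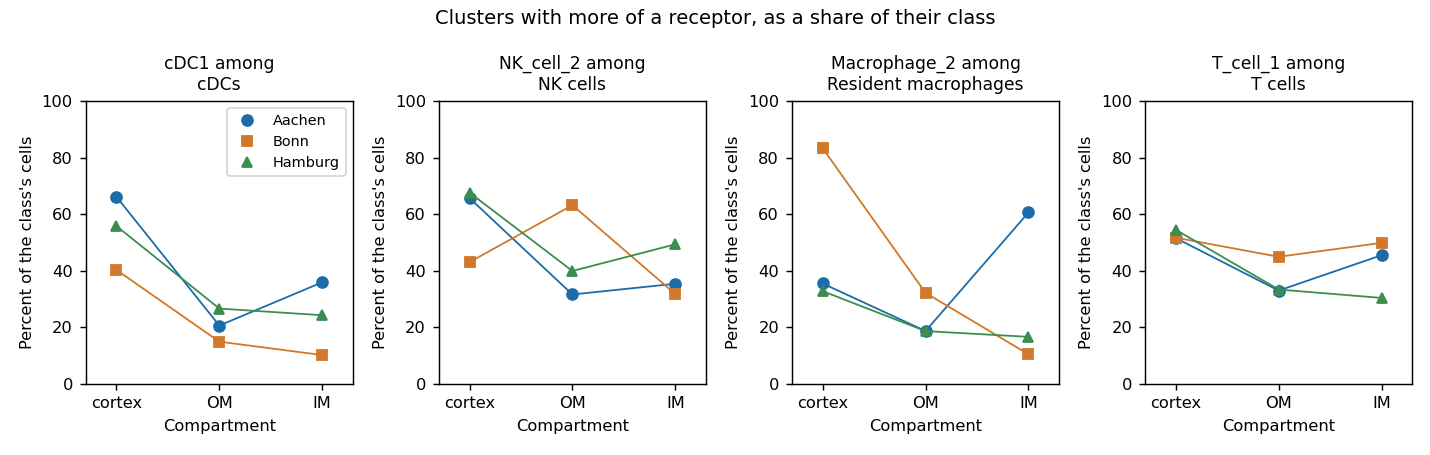
Share (percent) of cDC1 among cDCs, NK_cell_2 among NK cells, Macrophage_2 among resident macrophages and T_cell_1 among T cells in cortex, OM and IM, with a line for each dataset. The cDC1 share is highest in the cortex in each dataset (66.2, 40.3 and 55.8%), as is that of T_cell_1 (51.5, 51.7 and 54.5%).

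In T cells no receptor passed the threshold, and the lowest p was that of Cxcr6. It was at 455, 209 and 377 CPM in Aachen, at 836, 694 and 576 in Bonn, and at 491, 324 and 298 in Hamburg, below the cortex in all 6 medullary libraries. The fitted difference was -0.53 ± 0.13 (adjusted p = 0.272), with a 95% interval of -0.79 to -0.26 and an unadjusted p of 0.000648. Of 20 alternatives it did not pass in 17 and passed in 3. The 3 were without the filter on low counts (-0.57, adjusted p = 3.84e-05), without the Bonn cortex (-0.59, adjusted p = 0.0303) and without the Bonn dataset (-0.61, adjusted p = 0.0478). T_cell_1 made up 52.6% ± 1.65 of T cells of the cortex, against 37.1% ± 6.80 in OM and 41.9% ± 10.2 in IM. The part of this share in the difference was not tested. Within T_cell_1 alone the difference was -0.54 (adjusted p = 0.222), and within T_cell_2 alone -0.41 (adjusted p = 0.767). In T_cell_1 Cxcr6 was at 529, 229.8 and 373 CPM in Aachen, at 1271, 1076 and 675 in Bonn, and at 718, 495 and 556 in Hamburg, again below the cortex in all 6.

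Cxcr3 in T cells was at 208, 80.7 and 167 CPM in Aachen, at 402, 354 and 310.4 in Bonn, and at 218, 176 and 165 in Hamburg, likewise below the cortex in all 6 medullary libraries. Its difference was -0.38 ± 0.13 (adjusted p = 0.673). It passed in 1 of 20 alternatives, without the filter on low counts (-0.43, adjusted p = 0.0226). Ccr7 went both ways, higher in the medulla of Aachen and Hamburg and lower in that of Bonn. It was at 22.5, 54.6 and 64.4 CPM in Aachen, at 180.4, 128 and 119.6 in Bonn, and at 323, 398 and 418 in Hamburg, with 0.11 ± 0.18 (adjusted p = 1). Ccr2 gave -0.26 ± 0.14 (adjusted p = 0.899) and Cxcr4 -0.21 ± 0.24 (adjusted p = 1). The 10 macrophage markers summed in T cells to 1.02 to 20.2 UMIs per 10000 in cortex and 1.55 to 52.3 in medulla, and their part in these differences was not tested.

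In resident macrophages, the phagocytes that live in the tissue, the 7 receptors tested had 6 unadjusted p-values under 0.05 (over all genes 10.0% did) and no call. Ccr2 was at 139.9, 34.6 and 152 CPM in Aachen, at 423, 199.8 and 119 in Bonn, and at 185, 95.2 and 137 in Hamburg. It was lower than in cortex in 5 of the 6 medullary libraries, the Aachen IM being the exception, and the fitted difference was -1.01 ± 0.27 (adjusted p = 0.0952), with -1.28 ± 0.32 (adjusted p = 0.0785) for OM alone. Of 20 alternatives it did not pass in 16 and passed in 4. The 4 were without the filter on low counts (-1.02, adjusted p = 1.52e-10), without the Aachen IM (-1.29, adjusted p = 0.00118), without the Aachen dataset (-1.15, adjusted p = 0.00297) and with cells thinned to 500 UMIs (-1.35, adjusted p = 0.0128). Macrophage_2, the cluster with most Ccr2, made up 35.5, 83.3 and 32.8% of resident macrophages in the cortex of the 3 datasets, against 18.6, 32.1 and 18.6% in OM and 60.6, 10.4 and 16.6% in IM, where the share of Aachen lay above that of its cortex. Macrophage_3, the one with least Ccr2, made up at most 7.05% in the cortex of a dataset, against 44.7, 42.9 and 23% in OM and 1.17, 43.1 and 15.4% in IM, a higher share in each medullary library than in the cortex of its dataset. Within Macrophage_2 alone Ccr2 differed by 0.01, and within Macrophage_1 alone by -0.99 (adjusted p = 0.133). The part of the cluster shares in the result was not tested.

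Cx3cr1, the receptor that all macrophage clusters shared, did not pass either. It was at 306, 281 and 332 CPM in Aachen, at 703, 901 and 664 in Bonn, and at 318, 405 and 342 in Hamburg, with a difference of 0.13 ± 0.13 (adjusted p = 0.831) and a 95% interval of -0.14 to 0.40. Cxcr4 was at 37, 49 and 28 CPM in Aachen, at 14.2, 29.6 and 34.7 in Bonn, and at 121, 155 and 164 in Hamburg, above the cortex in 5 of the 6 medullary libraries, with 0.60 ± 0.20 (adjusted p = 0.24). It passed in 2 of 20 alternatives, without the filter on low counts (0.59, adjusted p = 0.0229) and without the Aachen IM (0.66, adjusted p = 0.0442). The 4 receptors under 50 CPM, Ccr1, Ccr7, Cxcr3 and Cxcr6, ranged from -1.96 (Cxcr6) to 1.48 (Ccr1), with adjusted p-values from 0.131 to 0.413. The last 3 are receptors of lymphocytes, and the 6 T cell markers summed in macrophages to 0.113 to 2.29 UMIs per 10000 in cortex and 0.0828 to 1.33 in medulla, whose part was not tested.

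In B cells no receptor passed. Ccr7 was at 666, 257 and 352 CPM in Aachen, at 371, 332 and 445 in Bonn, and at 1611, 1662 and 1585 in Hamburg, lower in the medulla of Aachen and on both sides of the cortex in Bonn and Hamburg, with -0.26 ± 0.16 (adjusted p = 1). Cxcr5 was at 44.4, 57.4 and 20.7 CPM in Aachen, at 149, 144 and 156 in Bonn, and at 129.7, 154 and 140.4 in Hamburg, with 0.07 ± 0.15 (adjusted p = 1) and a 95% interval of -0.24 to 0.39. Ccr6 gave 0.35 ± 0.15 (adjusted p = 1) and Cxcr4 0.27 ± 0.20 (adjusted p = 1). Over all genes, 3 of 8509 passed in B cells.

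In monocytes, Ccr2 was at 299, 162 and 332 CPM in Aachen, at 712, 533 and 660.4 in Bonn, and at 305, 396 and 441 in Hamburg, lower in the medulla of Bonn and higher in that of Hamburg, with 0.01 ± 0.17 (adjusted p = 0.999). Cx3cr1 gave -0.10 ± 0.17 (adjusted p = 0.999) and Cxcr4 0.19 ± 0.21 (adjusted p = 0.999). In ILC2, Cxcr6 was at 229, 208 and 189 CPM in Aachen, at 747 and 392 in cortex and IM of Bonn, and at 559, 627 and 677 in Hamburg, with -0.17 ± 0.23 (adjusted p = 0.98). Ccr2 in ILC2 was at 91.6, 110.2 and 56.6 CPM in Aachen, at 223 and 392 in cortex and IM of Bonn, and at 94, 147 and 233 in Hamburg, higher than in cortex in 4 of the 5 medullary libraries, with 0.71 ± 0.30 (adjusted p = 0.753). The ILC2 libraries held 23 to 95 cells, and the 95% interval for Ccr2, 0.07 to 1.36, is wide. Neutrophils, which had most Ccr1 and Cxcr4, reached 20 cells in 4 libraries only. There Ccr1 was at 471 in the Bonn IM and 434, 603 and 707 in the cortex, OM and IM of Hamburg, and Cxcr4 at 444 and 309, 407 and 548, with no replicate and no test.

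Whether the medullary difference itself differed between classes was tested for 22 combinations of a receptor and a pair of classes (cDCs and T cells each against resident macrophages, and B cells against T cells), and no receptor passed, while 46, 0 and 2 of all genes did (0.511, 0 and 0.0208% of those tested). The lowest unadjusted p was 0.0113, for Ccr2 in cDCs against macrophages, a difference of 0.92 with a 95% interval of 0.23 to 1.62 (adjusted p = 0.34). NK cells were in no pair, so their differences were not tested against those of another class.

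Several ligands of these receptors were highest in macrophages. Cxcl9 and Cxcl10, which bind Cxcr3, were highest in Isg+_Macrophage (1719 ± 987 and 833 ± 354 CPM), as were Cxcl16, the ligand of Cxcr6 (791 ± 153), and Ccl7 and Ccl12, ligands of Ccr2 (239 ± 368 and 1545 ± 1343). Ccl3 and Ccl4 were highest in Macrophage_1 and Ccl5 in NK_cell_1 (22708 ± 10722). Ligands that are mainly made by cells outside the CD45+ gate were scarce. Cx3cl1 had 73 UMIs, Cxcl12 147 and Ccl19 12 in all 20266 cells, and Ccl20, Ccl21a and Cxcl13 had 0, which allows up to 0.0148% of cells with a UMI. Between medulla and cortex, 7 calls were made among 19 ligands over the 7 classes. In monocytes 3 of the 9 tested fell, Cxcl10 by 2.53 ± 0.23 (adjusted p = 1.03e-16) on the log2 scale, Ccl2 by 1.39 ± 0.20 (adjusted p = 5.01e-07) and Ccl5 by 1.14 ± 0.27 (adjusted p = 0.0155), and the median of the 9 was -0.59 against -0.01 over all genes. Over all alternatives the call was lost in 1 of 17 for Cxcl10, 5 of 19 for Ccl2 and 8 of 18 for Ccl5. Cxcl10 passed without each library in turn. Ccl2 did not without the Hamburg cortex (-0.30) or OM, nor Ccl5 without the Aachen OM (-0.72), Bonn cortex or Hamburg cortex. Ccl5 was at -3.38 without the Hamburg OM and at -2.27 without the Aachen IM. Ccl5 is a transcript of NK and T cells, and the 6 NK cell markers summed in monocytes to 0.118 to 1.04 UMIs per 10000 in cortex and 0 to 2.16 in medulla and the 6 T cell markers to 0.629 to 0.875 UMIs per 10000 in cortex and 0.324 to 2.29 in medulla, whose part was not tested.

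In resident macrophages, Ccl8, a monocyte chemoattractant, rose by 1.83 ± 0.41 (adjusted p = 0.0413) and Ccl9 fell by 0.79 ± 0.15 (adjusted p = 0.0174), 2 of 12 tested. Ccl8 was at 0.91 without the Bonn cortex and lost its call for 7 of 9 libraries, all but Aachen IM and Hamburg cortex, and Ccl9 lost its call without Bonn cortex, Hamburg cortex or Hamburg IM, and in 9 of 20 alternatives in all. In cDCs Ccl7 fell by 2.46 ± 0.26 (adjusted p = 1.86e-04), 1 of 10 tested, and lost the call without Hamburg cortex or Hamburg OM, while its values ranged from -4.70 (without the Hamburg IM) to -2.06 (without the Hamburg OM). In NK cells Ccl5 rose by 0.73 ± 0.10 (adjusted p = 4.67e-10), 1 of 4 tested, and lost the call in 4 of 19 alternatives, with NK_cell_1, the largest cluster, alone at 0.44 (adjusted p = 0.305). Ccl5 is highest in NK_cell_1, whose share was higher than in cortex in 5 of 6 medullary libraries, and within NK_cell_2 alone it differed by -0.28. T cells, B cells and ILC2 had no ligand called. Of 14 other chemokine receptors, 5 at most passed the filter in a class and 2 were called, both in cDCs, Xcr1 (given above) and Ccrl2, an atypical receptor that binds chemerin, which rose by 1.13 ± 0.22 (adjusted p = 0.00815) and lost its call without Bonn cortex or Hamburg OM. Of 12 genes that regulate chemokine responses or exit from tissue, Cd69, which retains lymphocytes in tissue, fell in resident macrophages by 0.63 ± 0.12 (adjusted p = 0.0229). Cd69 lost its call without Aachen cortex, Bonn cortex, Hamburg cortex, Hamburg OM or Hamburg IM. Over all alternatives the call was lost in 12 of 20 for Cd69 and 13 of 19 for Ccl8, both in resident macrophages. In cDCs it was lost in 5 of 18 for Ccl7 and 6 of 18 for Ccrl2. The median log2 difference of the 12 regulating genes lay between -0.14 and 0.04 in the 7 classes.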

How the data were processed

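The authors used Cell Ranger with mm10 and, in Seurat, integration and clustering of cells holding 200 to 4000 genes and no more than 20% mitochondrial reads. The deposited table holds estimated counts (expected counts of UMIs, not scaled to depth) for each gene and cell, with the cluster, compartment and facility of each cell. They are whole in Aachen and Bonn and 0.118% whole in Hamburg, how these were made is not given in the sources used here, and counts summed per library and class were rounded for the tests. A cell was counted as holding a UMI where its value was at least 0.5.

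Libraries are compartments of a dataset, with 20 cells or more of a class. Counts were filtered with filterByExpr, scaled by TMM and tested with glmQLFit and glmQLFTest in edgeR 4.0.16 (R 4.3.3), with terms for compartment and dataset, Benjamini-Hochberg adjustment over all genes and a threshold of 0.05. The SE is the size of the log2 difference divided by the root of F, and 95% intervals use the t quantile of the fit's degrees of freedom. Nothing in the labels says that libraries came from separate animals. The block takes out level differences between datasets. The p-values set the compartment difference against the gene's remaining variance, drawn toward the trend over all genes of the class. They do not measure the spread among these datasets alone. In NK cells and monocytes the fit leaned mostly on that shared trend, since its degrees of freedom far exceeded those the libraries give. Libraries of a dataset share their facility, and their profiles were alike. After subtraction of compartment means, their profiles over 5827 genes correlated at 0.81 to 0.949 within a dataset and -0.824 to 0.359 between datasets. The subtraction itself makes the correlations between datasets more negative, so these ranges are a description and no test of pairing. DESeq2 1.42.0 was an alternative. Doublets were called per library with Scrublet in scanpy 1.11.5 at an expected rate of 0.05 (288 cells, 1.42%), kept in the main analysis and removed in an alternative; in 6 libraries under 0.5% were called, so the caller found little there. Thinning drew 500 UMIs per cell. Python was 3.11.15. The edgeR script was tested on simulated data with known changes. The simulation gave every gene the same spread and each dataset the same compartment effect. It therefore cannot show how the test behaves where that effect varies between datasets. Receptor and class combinations are named with their values at 50 CPM or more (UMIs per 1000000) on average, or where called, and the rest are counted. The receptors, the lists of ligands, other receptors and regulators, and the tests were chosen with earlier results of these data known. Some genes of these lists, and some near a receptor in profile, are not reported here.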

Additional observations from a re-analysis of the deposited data

How the results depend on the processing

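The 3 receptor and class combinations called between medulla and cortex became 2 with DESeq2's size factors and 3 without called doublets, 0 with DESeq2, 12 without the filter on low counts, 0 without the dataset as replicate block, 0 in the largest cluster of each class alone and 1 with cells thinned to 500 UMIs, where 21 combinations could be tested. It was 6 without Aachen, 3 without Bonn and 0 without Hamburg. Leaving out 1 library at a time, alternatives chosen after seeing the data, gave 8 without the Aachen IM, 1 or 2 without the Aachen cortex, Aachen OM, Bonn cortex or Bonn OM and 0 without any of the remaining 4, so 0 to 8 in all. Leaving out a dataset gave, for OM against cortex 0 to 3, for IM against cortex 0 to 6 and for OM against IM 0 to 1; DESeq2 gave 0 for OM against cortex. Of the alternatives for named combinations of the 9 receptors, 403 kept direction and side of the threshold, 35 lost a call, 10 gained one and 48 changed sign. The sign changes, as log2 medulla over cortex, were without the filter on low counts, Ccr2 in Monocytes -0.0090; without the dataset block, Ccr2 in Monocytes -0.078, Ccr7 in cDCs 0.16; with DESeq2, Ccr7 in cDCs 0.26; without called doublets, Ccr2 in Monocytes -0.011; in the largest cluster of the class alone, Cx3cr1 in Resident macrophages -0.044, Ccr2 in cDCs 0.28, Cx3cr1 in cDCs -0.53; with thinned cells, Ccr2 in Monocytes -0.49, Cx3cr1 in Monocytes 0.14, Ccr2 in NK cells 0.076, Cx3cr1 in Resident macrophages -0.051; in NK_cell_2 alone, Cxcr6 in NK cells 0.059; in Macrophage_2 alone, Ccr2 in Resident macrophages 0.013; in T_cell_2 alone, Ccr2 in T cells 0.19; in T_cell_3 alone, Ccr7 in T cells -0.16, Cxcr4 in T cells 0.048; in cDC1 alone, Cxcr3 in cDCs 0.12. With a dataset or library left out, values that changed sign ranged over Ccr7 in B cells -0.45 to 0.024, Cxcr4 in B cells -0.12 to 0.68, Cxcr5 in B cells -0.0071 to 0.16, Cxcr6 in ILC2 -0.59 to 0.15, Ccr2 in Monocytes -0.25 to 0.28, Cx3cr1 in Monocytes -0.41 to 0.053, Cxcr4 in Monocytes -0.31 to 1.10, Ccr7 in T cells -0.14 to 0.49, Cxcr4 in T cells -0.50 to 0.015, Ccr2 in cDCs -0.15 to 0.057, Ccr7 in cDCs -0.36 to 0.33, Cx3cr1 in cDCs -0.0047 to 0.84. None of these receptor values was a call except Cxcr3 in cDCs. Of the other genes called, 1 changed sign, Ccl5 in NK cells, at -0.28 in NK_cell_2 alone. The clusters alone of cDC1, NK_cell_2, T_cell_2, T_cell_3 and Macrophage_2 were chosen after seeing the data, and the cause of these changes was not tested. Of the 27 genes nearest the receptors, 12 were kept with a pseudocount of 1. Without called doublets each receptor's level in its leading cluster moved by less than 1 SD. Aachen's depth limits the sparse receptors: Ccr6 had 21 UMIs and Cxcr5 46 there.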
